A study of Homo sapiens with 18 samples.

Results

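The genes described here are 10 inflammatory cytokines and effectors (IL6, LIF, IL1A, IL1B, TNF, CSF1, CSF2, PTGS2, ICAM1 and SOD2), chosen by name, out of 62749 genes in the deposited tables. The choice was made with earlier results of these data known, so counts of these genes beside all genes only describe them. All were measured by mRNA sequencing in MDA-MB-231, a human breast cancer line of the triple-negative type. The 18 libraries fall into 6 groups of 3. Every growth protocol gives MDA-MB-231 as the line, but the number that ends the cell line field rises by 1 from each sample to the next, and the IMPDH2 number in some genotype fields of KO-NLS and KO-NES rises likewise. Use of 1 line and 1 gene was therefore assumed. The groups were IMPDH2 knockout cells grown with 400 µM guanosine (KO+G), knockout cells given back IMPDH2 without an added localisation (KO-WT), with a nuclear localisation (KO-NLS) or with a cytosolic one (KO-NES), knockout cells without guanosine (KO), and unedited cells (WT). No guanosine was added to KO-WT, KO-NLS, KO-NES, KO or WT. All groups were kept in DMEM with fetal bovine serum. IMPDH2 is the inosine monophosphate dehydrogenase that commits purine synthesis to guanine nucleotides, and added guanosine can enter the same pool by salvage. The labels do not say whether KO is 1 clone, how IMPDH2 was given back, or whether replicates are separate cultures. Every p below therefore measures only the spread between these libraries, and the knockout cannot be told apart from the history of the KO line. In bulk RNA, fewer cells that express a gene and less RNA per cell cannot be told apart.

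Interleukin 6 and LIF signal through receptors that share the gp130 subunit and act through JAK kinases and STAT3, while interleukin 1 alpha and beta bind a common receptor that activates NF-kB and MAP kinases. The promoters of most of these genes are known targets of NF-kB and AP-1, and many of their mRNAs carry AU-rich elements that mark them for rapid decay. MDA-MB-231 cells are known for constitutive NF-kB activity and for secreting interleukin 6 in culture.

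IMPDH2 itself was measured first, as a check of the labels, on the scale of CPM (a gene's counts relative to its library's size, with sizes adjusted by the TMM method). Its level was 22.1 ± 0.11 CPM in KO+G, 532 ± 10.4 in KO-WT, 297 ± 12.6 in KO-NLS, 379 ± 13.9 in KO-NES, 41.6 ± 0.566 in KO and 319 ± 0.557 in WT (SD, n = 3 each). Library totals ran from 45865079 to 63276484 estimated counts, and 19252 genes had enough counts to be tested. VIM, a mesenchymal marker of this line, had mean levels of 3410 to 4770 CPM, whereas SPARC, also listed as present, had 0.0665 to 1.23 CPM. Of the markers listed as low or absent, EPCAM passed the filter, at means of 8.29 to 9.14 CPM, and ESR1, PGR and CDH1 did not. Among 10 blood and myeloid markers, TYROBP was at 0 in every group. CD68, a lysosomal protein gene that other cells also express, had means of 424 CPM in KO+G, 681 CPM in KO and 146 CPM in WT. The other 9 markers summed to means of 1.77 CPM in KO+G, 2.62 CPM in KO and 5.96 CPM in WT, and the 4 endothelial markers summed to 3.71 to 12.5 CPM across the libraries. The part of such cells in the results was not tested. In KO against WT the median of the log2 fold changes over all genes was 0.007 with TMM scaling and 0.168 with library totals alone, and changes are given relative to the TMM scale.

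Per transcript length, in TPM (a share of all transcripts corrected for their length, as deposited), SOD2 was the most abundant of the 10 genes, with a mean of 98.2 TPM over the 18 libraries. It was followed by LIF at 25.9, CSF1 at 25.1, PTGS2 at 18.6 and ICAM1 at 15.4 TPM. IL6 at 8.43, IL1B at 7.07, CSF2 at 4.51 and IL1A at 2.21 TPM were less abundant, and TNF was almost absent at 0.027 TPM. With protein-coding transcripts alone SOD2 had 38.4 TPM in KO-NES to 55.8 TPM in KO, and in WT its 50.2 TPM stood below the 62.2 TPM of CSF1. The order of all transcripts together also changed between groups. In KO, PTGS2 stood at 38.5 ± 5.26 TPM, above CSF1 at 23.2 ± 2.35, whereas in WT it stood at 10.7 ± 0.42 TPM, below CSF1 at 63.2 ± 4.98 (SD, n = 3 each).

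**Figure D1:**
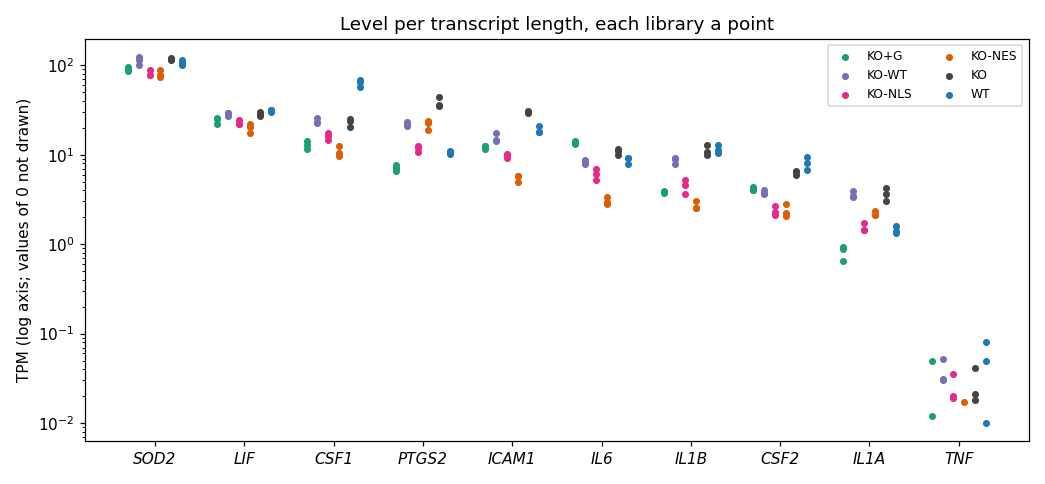
Level of the 10 genes in TPM on a log axis, with each point a library and the groups in the order of the legend. SOD2 leads with a mean of 98.2 TPM, TNF lies near 0.027 TPM, and values of 0 are not drawn.

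Of the 10 genes, 8 had a promoter window in the RefSeq table (GRCh38.p14), and 250 bases before the annotated start were searched on both strands for 5 short motifs. Printed here are the window with the NF-kB consensus and, for the gene with AP-1 matches, the window with more of them. Also printed are those of PTGS2 and ICAM1, which had the widest range of group means among the tested genes with a window. Capitals mark the NF-kB consensus in IL6, the AP-1 letters TGANTCA in IL1A and the TATA letters TATAAA in PTGS2 and ICAM1, with no overlap among these matches.
IL6 (chr7:22726950-22727199, plus strand): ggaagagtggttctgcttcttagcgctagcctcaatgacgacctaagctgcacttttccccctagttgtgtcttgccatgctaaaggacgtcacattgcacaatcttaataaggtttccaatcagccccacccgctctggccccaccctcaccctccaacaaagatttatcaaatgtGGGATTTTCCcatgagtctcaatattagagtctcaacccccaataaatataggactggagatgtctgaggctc
IL1A (chr2:112784401-112784650, minus strand): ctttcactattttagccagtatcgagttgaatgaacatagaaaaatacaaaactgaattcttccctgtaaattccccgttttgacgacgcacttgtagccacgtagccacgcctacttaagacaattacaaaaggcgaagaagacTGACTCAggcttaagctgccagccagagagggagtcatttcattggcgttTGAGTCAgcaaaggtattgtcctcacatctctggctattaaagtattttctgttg
PTGS2 (chr1:186680424-186680673, minus strand): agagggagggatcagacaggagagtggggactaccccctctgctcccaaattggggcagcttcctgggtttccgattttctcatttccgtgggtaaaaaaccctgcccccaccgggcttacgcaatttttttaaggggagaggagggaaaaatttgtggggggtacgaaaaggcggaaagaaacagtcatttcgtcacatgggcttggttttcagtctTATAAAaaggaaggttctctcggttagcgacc
ICAM1 (chr19:10270870-10271119, plus strand): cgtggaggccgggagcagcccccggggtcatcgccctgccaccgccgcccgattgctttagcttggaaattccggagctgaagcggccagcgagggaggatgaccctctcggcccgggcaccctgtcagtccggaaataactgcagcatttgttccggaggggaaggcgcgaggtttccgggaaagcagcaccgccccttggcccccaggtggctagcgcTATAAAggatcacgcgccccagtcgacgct
The IL6 match GGGATTTTCC lay 73 to 64 bases before the start, and the consensus occurred in 5.21% of all 34786 promoter windows. IL1A held TGACTCA at 105 to 99 and TGAGTCA at 55 to 49 bases before the start of the printed window, and 6.59% of windows held AP-1 letters. RefSeq also gives IL1A another start, whose window is not printed. Before that start TGACTCA lay at 12 to 6 bases, with no other AP-1 match, and TATAAA at 239 to 234. TATAAA stood 32 to 27 bases before the PTGS2 start and 30 to 25 before the ICAM1 start, against 10.8% of all windows. The C/EBP letters TTNCNNAA, in 33.2% of windows, and the CRE half-site TGACG, in 21.2%, also had matches among these genes. A match describes the letters of the window and not a bound site. Only exact matches to the consensus letters were counted. Variants of the NF-kB consensus were not searched for, so a window without a match may still hold a site.

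IL6 (ENSG00000136244.12, chromosome 7, 22725884 to 22732002, plus strand, GRCh38), the acute-phase cytokine that signals through gp130, was the 1 gene of the 9 tested that stood higher in KO+G than in KO. Its level was 10.8, 10.5 and 11.4 CPM in KO+G, against 8.78, 9.2 and 8.04 CPM in KO and 6.39, 6.49 and 7.08 CPM in WT. The rescued lines had 7.12, 6.46 and 6.51 CPM in KO-WT, 5.03, 4.38 and 5.79 CPM in KO-NLS and 2.48, 2.93 and 2.41 CPM in KO-NES. All KO+G libraries lay above all KO libraries, all KO-NES libraries lay below every other library, and KO-WT overlapped WT. KO was 1.3-fold higher than WT (log2 0.38 ± 0.0924 SE, adjusted p = 0.00117). This and every adjusted p below is edgeR's, by the quasi-likelihood method and adjusted by Benjamini-Hochberg over all genes of the comparison, and a gene was called at 0.05. KO+G was 1.26-fold higher than KO (log2 0.33 ± 0.0903, adjusted p = 0.00461), and KO-NES was 3.31-fold lower than KO (log2 -1.73 ± 0.0995, adjusted p = 1.39e-10). A gene on the opposite strand, STEAP1B, overlaps IL6. The libraries were stranded, per the labels, and whether the quantification used the strand is not given in the sources used here.

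LIF (chromosome 22, 30240447 to 30246851, minus strand), a gp130 cytokine that keeps mouse embryonic stem cells undifferentiated, had group means close to one another. They were 78 ± 3.58 CPM in KO+G, 95.4 ± 1.92 in KO-WT, 79.3 ± 3 in KO-NLS, 72 ± 3.09 in KO-NES, 87.1 ± 1.44 in KO and 102 ± 4.79 in WT (SD, n = 3 each), a range of 1.42-fold. KO lay 0.23 below WT on the log2 scale (adjusted p = 4.11e-05), and the call was lost with library totals (log2 -0.07, adjusted p = 0.139) and with an offset for transcript length (log2 -0.15). The antisense gene LIF-AS1 overlaps the locus.

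IL1A (chromosome 2, 112773915 to 112784590, minus strand) encodes interleukin 1 alpha, an alarmin active as its precursor, and it was higher in KO than in WT and lowest with guanosine. Libraries had 1.34, 1.18 and 0.904 CPM in KO+G, against 4.83, 5.74 and 4.02 CPM in KO and 1.79, 1.76 and 2.06 CPM in WT. KO-WT had 5.48, 4.43 and 4.89 CPM, KO-NLS had 1.94, 2.48 and 2.07 CPM and KO-NES had 3.06, 3.42 and 2.99 CPM. KO-WT overlapped KO, and KO-NLS overlapped WT, while KO+G lay below every other group. These are 42 to 313 counts a library, so IL1A is among the less precise genes. KO was 2.6-fold higher than WT (log2 1.38 ± 0.148, adjusted p = 1.32e-07), and KO+G was 4.25-fold lower than KO (log2 -2.09 ± 0.156, adjusted p = 2.51e-09). KO-WT did not differ from KO past the threshold (log2 0.02 ± 0.139, adjusted p = 0.915), and the sign of that value turned with library totals (-0.06).

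IL1B (chromosome 2, 112829751 to 112836903, minus strand) encodes interleukin 1 beta, a precursor cut by caspase 1, and it fell with guanosine and in the rescued lines without a called difference between KO and WT. It had 3.82, 3.53 and 3.6 CPM in KO+G, against 8.95, 11.3 and 9.5 CPM in KO and 10.9, 10.1 and 10.9 CPM in WT. Values were 8.81, 8.16 and 7.59 CPM in KO-WT, 3.54, 4.14 and 4.79 CPM in KO-NLS and 2.4, 2.95 and 2.37 CPM in KO-NES. KO overlapped WT, and KO-NES lay below every other group. KO against WT gave a log2 of -0.1 ± 0.103 (adjusted p = 0.4), which turned to 0.06 with library totals. KO+G was 2.72-fold lower than KO (log2 -1.44 ± 0.111, adjusted p = 3.66e-09) and KO-NES 3.83-fold lower (log2 -1.94 ± 0.114, adjusted p = 1.85e-10).

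CSF1 (chromosome 1, 109910242 to 109930992, plus strand), the growth factor of macrophages, was the gene with the widest range of group means among the 9 tested, 6.36-fold, and WT stood apart. Its level was 43.2, 38.1 and 40 CPM in KO+G, against 54.9, 68.5 and 67.1 CPM in KO and 208, 204 and 240 CPM in WT. The rescued lines had 82.8, 72.2 and 75.9 CPM in KO-WT, 55.3, 45.3 and 54.2 CPM in KO-NLS and 35.7, 30.9 and 35.7 CPM in KO-NES. No library of the knockout-derived groups came near the lowest WT library, and among them KO-NLS overlapped KO. KO was 3.42-fold lower than WT (log2 -1.77 ± 0.0885, adjusted p = 2.39e-12), KO+G was 1.57-fold lower than KO (adjusted p = 1.09e-05), and KO-WT was 1.21-fold higher than KO (adjusted p = 0.0156). KO-WT stayed below WT (log2 -1.5 ± 0.0875, adjusted p = 3.75e-11).

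CSF2 (chromosome 5, 132073790 to 132076170, plus strand), which encodes the granulocyte-macrophage growth factor GM-CSF, was lower in every knockout-derived group than in WT. It had 2.04, 2.22 and 2.07 CPM in KO+G, against 3.27, 2.97 and 3.28 CPM in KO and 4.23, 3.37 and 4.82 CPM in WT. Values were 1.87, 1.87 and 2.1 CPM in KO-WT, 1.42, 1.08 and 1.22 CPM in KO-NLS and 1.21, 1.52 and 1.08 CPM in KO-NES. KO-NLS and KO-NES overlapped each other and lay below all other groups. KO-NLS was 2.56-fold lower than KO (log2 -1.36 ± 0.146, adjusted p = 3.59e-07) and KO-NES 2.48-fold lower (log2 -1.31 ± 0.145, adjusted p = 6e-07). The call of KO against WT (log2 -0.38 ± 0.136, adjusted p = 0.0171) was lost with library totals (log2 -0.22), without WT replicate 3 (-0.24) and without KO replicate 2 (-0.34). With no filter on low counts the log2 stayed at -0.38 and the adjusted p was 0.0587.

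TNF (chromosome 6, 31575567 to 31578336, plus strand), the cytokine that is a classical activator of NF-kB, did not pass the filter and was not tested. It had 43 counts in all 18 libraries together, with 0 to 7 counts a library, and 3 libraries were at 0. A count of 0 allows up to 3 counts, or 0.0654 CPM in the smallest library, counting error only. No fold is given.

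PTGS2 (chromosome 1, 186671791 to 186680427, minus strand), the inducible cyclooxygenase of prostaglandin synthesis, was highest in KO and lowest in KO+G. It had 14.8, 15.7 and 15.8 CPM in KO+G, against 68.4, 87.3 and 69.4 CPM in KO and 23.8, 23.7 and 25.5 CPM in WT. The rescued lines had 45.6, 42.4 and 44.8 CPM in KO-WT, 23, 28.1 and 24.7 CPM in KO-NLS and 42.1, 48.7 and 47.5 CPM in KO-NES. All KO libraries lay above all others and all KO+G libraries below all others, KO-NLS overlapped WT, and KO-NES overlapped KO-WT. KO was 3.08-fold higher than WT (log2 1.62 ± 0.0863, adjusted p = 5.97e-12). KO+G was 4.85-fold lower than KO (log2 -2.28 ± 0.0909, adjusted p = 5.13e-13), KO-WT was 1.69-fold lower (adjusted p = 4.17e-07), KO-NLS 2.96-fold lower (adjusted p = 5.47e-11) and KO-NES 1.63-fold lower (adjusted p = 1.07e-06).

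ICAM1 (chromosome 19, 10270835 to 10286615, plus strand), the adhesion molecule that leukocyte integrins bind, was highest in KO and lowest in KO-NES. It had 41.9, 38.8 and 42.1 CPM in KO+G, against 86.6, 98.6 and 95.7 CPM in KO and 61.2, 58 and 69.3 CPM in WT. Values were 56.9, 50.3 and 47.6 CPM in KO-WT, 34.9, 31 and 35.4 CPM in KO-NLS and 19.7, 18 and 19.1 CPM in KO-NES. No neighbouring pair of groups overlapped in the order KO, WT, KO-WT, KO+G, KO-NLS and KO-NES. KO was 1.49-fold higher than WT (log2 0.57 ± 0.0708, adjusted p = 7.83e-07), KO+G was 2.29-fold lower than KO (adjusted p = 1.63e-10) and KO-NES was 4.95-fold lower than KO (log2 -2.31 ± 0.0783, adjusted p = 1.93e-13). Antisense genes overlap ICAM1 in the annotation.

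SOD2 (chromosome 6, 159669057 to 159745186, minus strand), the mitochondrial manganese superoxide dismutase and a known NF-kB target, had a range of group means of 1.4-fold. Means were 154 ± 2.78 CPM in KO+G, 178 ± 5.35 in KO-WT, 146 ± 2.81 in KO-NLS, 134 ± 4.85 in KO-NES, 188 ± 3.44 in KO and 174 ± 9.11 in WT (SD, n = 3 each). KO was 1.08-fold higher than WT (adjusted p = 0.00833), a call that was lost without WT replicate 2 (log2 0.08, adjusted p = 0.0549) and with an offset for transcript length (log2 0.13, adjusted p = 0.119). KO-NES was 1.41-fold lower than KO (log2 -0.49 ± 0.0349, adjusted p = 1.96e-09). The files hold SOD2 under ENSG00000291237.1, and GENCODE 29 places its transcripts in ENSG00000112096.17, where a same-named gene and WTAP overlap it.

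**Figure D2:**
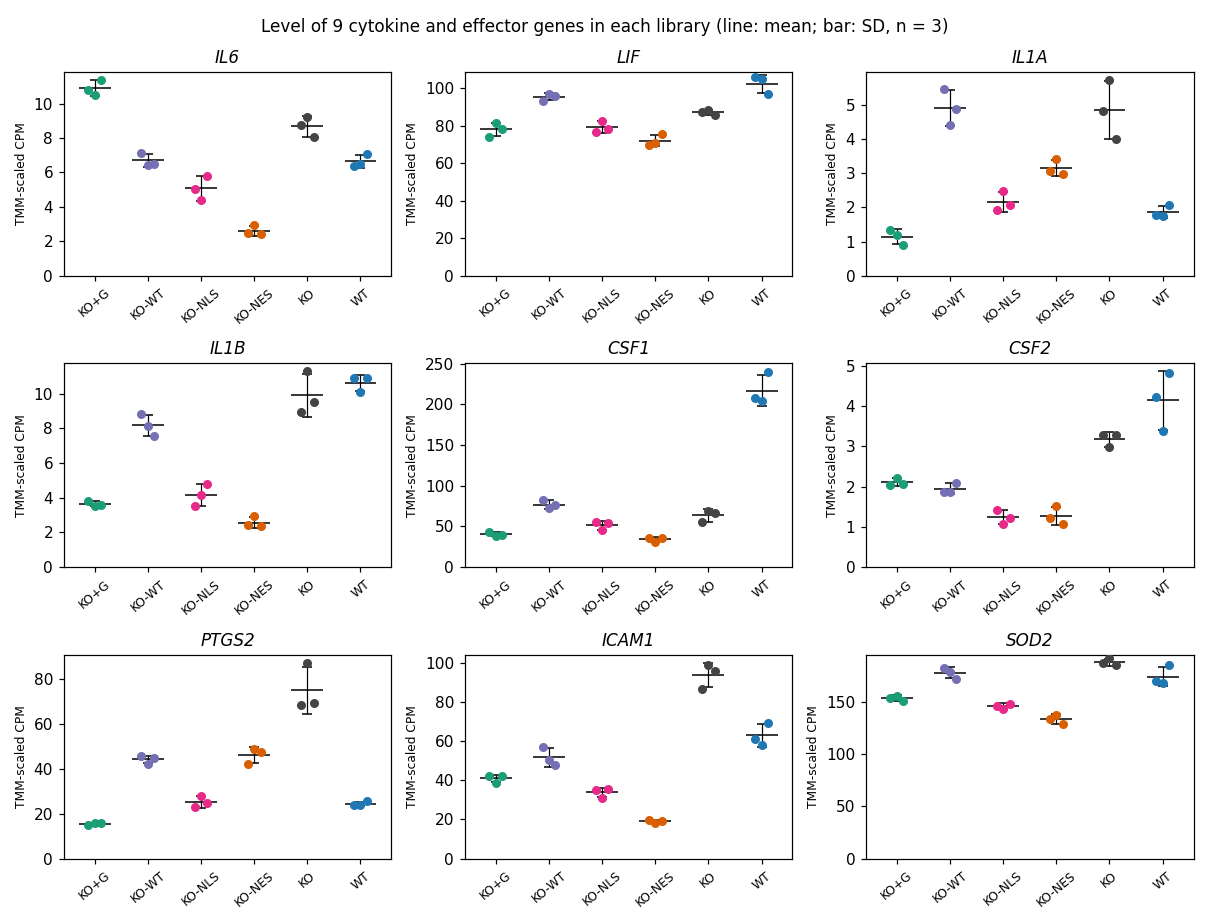
TMM-scaled CPM of the 9 tested genes in each library, by group, with axes from 0; each point is a library, the line is the mean and the bar is the SD (n = 3). CSF1 in WT (204 to 240 CPM) stands above all other groups, and PTGS2 and ICAM1 peak in KO.

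KO was set against WT for what goes with the loss of IMPDH2. Of the 9 genes tested, 5 rose (IL6, IL1A, PTGS2, ICAM1 and SOD2), 3 fell (LIF, CSF1 and CSF2) and IL1B was not called. Over all genes 72.7% were called, 35.9% as higher and 36.8% as lower. A call is therefore common in this comparison and does not by itself mark these genes out. The 3 libraries of KO and the 3 of WT did not overlap for 8 of the 9 genes, against 74.7% of all genes. Their median log2 fold change was 0.11, against 0.01 over all genes.

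KO+G and KO carry the same genotype label and differ in the labels by guanosine. IMPDH2 itself was 1.88-fold lower in KO+G than in KO (22.1 CPM in KO+G and 41.6 CPM in KO, adjusted p = 8.06e-13), and its part in the results was not tested. In KO+G 8 of the 9 genes were lower and IL6 was higher, while 56.5% of all genes were called, 27.3% as higher and 29.2% as lower. No libraries of KO+G and KO overlapped for any of the 9 genes, against 62.4% of all genes without overlap. The median log2 fold change was -0.65, against -0.02 over all genes. Of the genes that stood higher in KO than in WT, PTGS2, IL1A, ICAM1 and SOD2 stood below WT in KO+G, and IL6 did not. KO+G against WT gave a log2 of -0.66 ± 0.0962 for PTGS2 (adjusted p = 9.28e-06) and -0.71 ± 0.163 for IL1A (adjusted p = 9.6e-04). It gave -0.62 ± 0.0743 for ICAM1 (adjusted p = 7.8e-07) and -0.18 ± 0.035 for SOD2 (adjusted p = 0.000188). Of the 9 genes, 8 were lower and IL6 was higher in KO+G than in WT, where 63.9% of all genes were called, 31.1% as higher and 32.9% as lower.

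Most of these genes were lower in the lines given back IMPDH2 than in KO. With KO-WT against KO, 5 genes fell (IL6, IL1B, CSF2, PTGS2 and ICAM1), LIF and CSF1 rose and IL1A and SOD2 were not called, where 50.8% of all genes were called, 25.7% as higher and 25.1% as lower. All 9 genes tested fell in KO-NLS against KO, where 53% of all genes were called, 26.1% as higher and 26.9% as lower. All 9 also fell in KO-NES against KO, where 50.6% of all genes were called, 24.6% as higher and 26% as lower. Libraries did not overlap for 8 of the 9 genes in KO-WT against KO (58.2% of all genes), for 8 in KO-NLS against KO (59.7%) and for 9 in KO-NES against KO (55.3%). The median log2 fold change was -0.27 in KO-WT, -1.16 in KO-NLS and -0.9 in KO-NES, against -0.02 over all genes in each. The comparisons of KO+G, KO-WT, KO-NLS and KO-NES share the KO libraries, so their directions are not independent of one another. Each rescued form is a line of its own, and line and form cannot be told apart. In KO-WT the calls of LIF (log2 0.04), CSF1 (0.08) and IL1B (-0.35, adjusted p = 0.0605) were lost with an offset for transcript length, the fold of IL1B being larger than the -0.27 reported. With library totals the calls of LIF (0.05) and CSF1 (0.2) were lost, and SOD2 was called as lower (-0.16, adjusted p = 0.000388). CSF1 was not called without KO replicate 1 (0.19) or KO-WT replicate 1 (0.22), LIF without KO-WT replicate 2 (0.11), and IL1B without KO replicate 2 (-0.16), KO-WT replicate 2 (-0.28) or KO-WT replicate 3 (-0.23), while SOD2 was called without KO-WT replicate 1 (-0.1). Without KO replicate 2 or 3 or KO-NLS replicate 2, the fall of CSF1 in KO-NLS was not called (log2 -0.24, -0.25 and -0.22).

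The nuclear and the cytosolic form were compared directly. IL6, IL1B, LIF, CSF1, ICAM1 and SOD2 were higher in KO-NLS than in KO-NES, IL1A and PTGS2 were lower, and CSF2 was not called (log2 -0.05 ± 0.153, adjusted p = 0.879). Of all genes 23.9% were called, 13.4% as higher and 10.5% as lower, and libraries did not overlap for 8 of the 9 genes, against 36.2% of all genes. IL6 was 1.93-fold higher in KO-NLS (log2 0.95 ± 0.102, adjusted p = 2.49e-06) and ICAM1 1.78-fold higher (log2 0.83 ± 0.0814, adjusted p = 8.98e-07). PTGS2 was 1.82-fold lower (log2 -0.87 ± 0.0866, adjusted p = 1.12e-06) and IL1A 1.46-fold lower (log2 -0.54 ± 0.148, adjusted p = 0.0117). IMPDH2 itself was 1.27-fold lower in KO-NLS than in KO-NES (adjusted p = 1.33e-07), so dose and localisation of the enzyme cannot be told apart. IL1A was not called without KO-NLS replicate 1 (log2 -0.47) or KO-NES replicate 2 (log2 -0.48). LIF was not called without KO-NLS replicate 2 (0.11), KO-NES replicate 1 (0.12) or KO-NES replicate 2 (0.13), nor SOD2 without KO-NLS replicate 3 (0.11) or KO-NES replicate 3 (0.1). With an offset for transcript length neither SOD2 (0.02, adjusted p = 0.927) nor LIF (0.18, adjusted p = 0.147) was called.

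The rescued lines were also set against WT. KO-WT had 7 of 9 genes called, where 64.5% of all genes were, 31.1% as higher and 33.4% as lower. In it IL1A (log2 1.4 ± 0.149) and PTGS2 (log2 0.86 ± 0.0877) were higher, 5 genes were lower, and IL6 (log2 0.01 ± 0.0936, adjusted p = 0.936) and SOD2 were not called. SOD2 (0.03 as reported) was called as higher with library totals (0.11, adjusted p = 0.00478) and without WT replicate 3 (0.09, adjusted p = 0.0211). The call of LIF (-0.1 as reported) was lost without WT replicate 1 (-0.08) or 2 (-0.09) and without KO-WT replicate 1 (-0.07), 2 (-0.1) or 3 (-0.09). It was also lost with library totals (-0.02), no filter (-0.07), the length offset (-0.11) and the 6 compared libraries alone (-0.08). KO-NLS had 7 genes lower and IL1A and PTGS2 not called, where 65% of all genes were called, 31.5% as higher and 33.6% as lower. KO-NES had 7 lower and IL1A and PTGS2 higher, where 67.6% of all genes were called, 32.9% as higher and 34.7% as lower. These results count all transcripts of a gene. With protein-coding transcripts alone PTGS2 had 7.4 ± 1.24 TPM in KO-NES and 6.87 ± 0.285 in WT (SD, n = 3 each). It had 8.23 ± 0.362 TPM in KO-WT and 5.5 ± 0.269 in KO-NLS, and these levels were not tested.

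**Figure D3:**
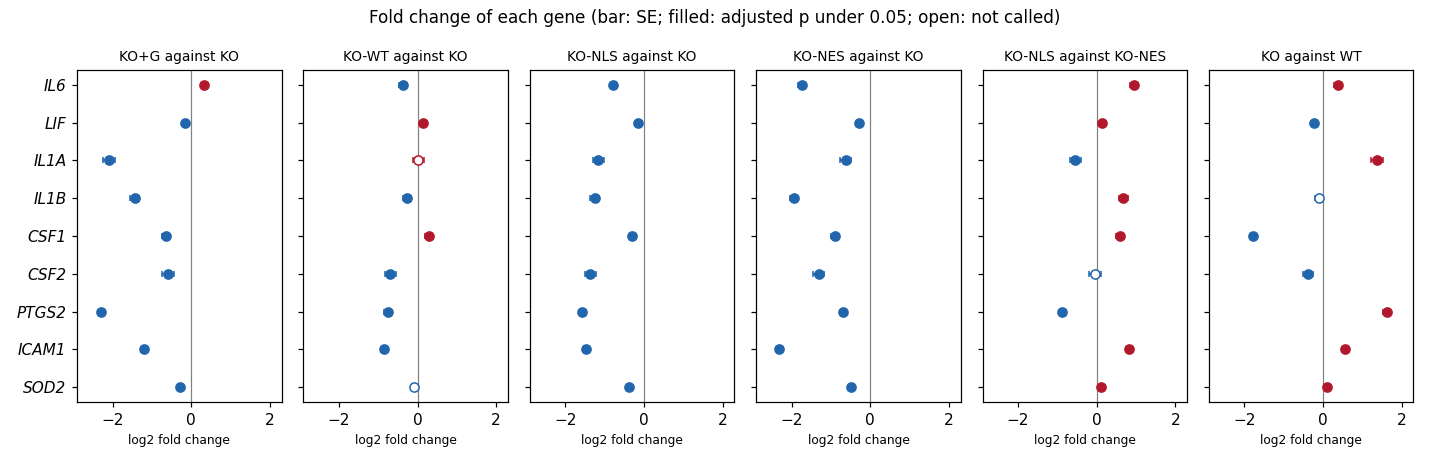
Log2 fold change of the 9 tested genes in 6 comparisons, with the SE as bars; filled points passed an adjusted p of 0.05 and open points did not. In KO-NLS and KO-NES against KO all 9 points lie left of 0, and in KO+G against KO all but IL6 do.

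Salmon's estimates also divide PTGS2 and CSF1 into transcripts, of which some stood at like levels in KO and WT and others did not. PTGS2-201, a coding transcript of 4510 bases, stood at 5.82 ± 1.17 TPM in KO and 5.69 ± 0.674 TPM in WT, whereas PTGS2-204, of 1705 bases and annotated as a target of nonsense-mediated decay, stood at 20.8 ± 2.92 TPM in KO and 3.44 ± 0.056 TPM in WT. PTGS2-205, a coding transcript of 4709 bases, stood at 7.45 ± 0.715 TPM in KO and 1.18 ± 0.741 TPM in WT. As a share, PTGS2-201 held 15.2% ± 2.9 of the PTGS2 TPM in KO and 53.3% ± 5.8 in WT (SD, n = 3 each). It held 23.3% ± 6 in KO+G, 21% ± 4.1 in KO-WT, 25.7% ± 11.3 in KO-NLS and 7.3% ± 7.7 in KO-NES. PTGS2-204 held 54.1% ± 0.8 in KO and 32.2% ± 1.8 in WT. With protein-coding transcripts alone PTGS2 had 13.3 TPM in KO and 6.87 TPM in WT, and with all of its transcripts it had 38.5 TPM in KO and 10.7 TPM in WT. Its coding transcripts had 3.22 of 7.1 TPM in KO+G, 8.23 of 21.9 in KO-WT, 5.5 of 11.7 in KO-NLS and 7.4 of 21.8 in KO-NES. CSF1-204 stood at 6.95 ± 1.18 TPM in KO and 6.98 ± 0.728 TPM in WT, whereas CSF1-201 stood at 9.22 ± 1.12 TPM in KO and 39.99 ± 4.19 TPM in WT. In shares of the CSF1 TPM, CSF1-201 held 39.7% ± 2.6 in KO and 63.3% ± 6 in WT, and CSF1-204 held 29.8% ± 2.4 in KO and 11% ± 0.5 in WT. Both CSF1 transcripts have 1662 coding bases in GENCODE 29, followed by 2157 bases in CSF1-201 and 697 in CSF1-204. These shares are Salmon estimates of how reads divide between overlapping transcripts and were not tested.

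**Figure D4:**
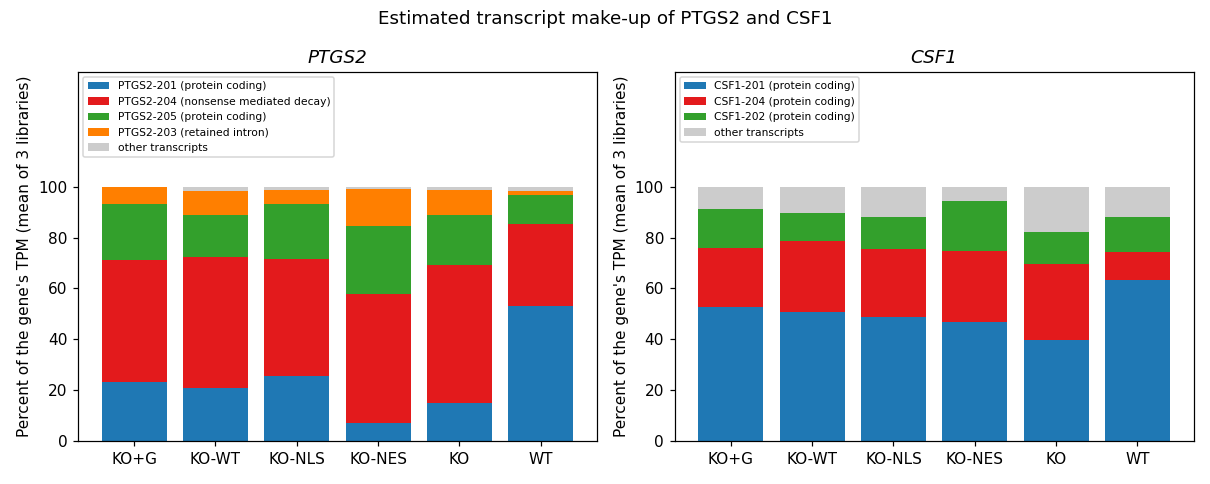
Mean share of each transcript in the TPM of PTGS2 and CSF1, in percent by group (3 libraries each), stacked from 0 to 100. PTGS2-201 holds 53.3% in WT and 7.3% to 25.7% in the other groups, and CSF1-201 holds 63.3% in WT and 39.7% to 52.6% elsewhere.

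Genes of the same pathways were described from lists written from background knowledge. Of 22 related cytokines 14 were tested, and 6 rose and 6 fell in KO against WT. There 72.7% of all genes were called, so a call does not by itself mark these cytokines out. IL24, a cytokine of the interleukin 10 family, had a mean of 78.1 CPM in KO and 12.7 CPM in WT (log2 2.62, adjusted p = 2.71e-17), and 34.2 CPM in KO+G. IL11, which signals through gp130, had 6.76 CPM in KO and 67.3 CPM in WT (log2 -3.31, adjusted p = 4.27e-15). The gp130 ligand CTF1 had 21.7 CPM in KO and 4.17 CPM in WT, and CLCF1 had 10.1 CPM in KO and 20.3 CPM in WT. In KO-NES against KO 1 of the 14 rose and 10 fell, with a median log2 of -0.88, where 24.6% of all genes rose and 26% fell, with a median of -0.02.

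Of 13 receptors and antagonists tested, 3 rose and 9 fell in KO against WT, where 35.9% of all genes rose and 36.8% fell. TNFRSF1A, the main TNF receptor, had 52.5 CPM in KO and 98.8 CPM in WT, and IL6R had 6.94 CPM in KO and 3.44 CPM in WT. CSF1R, the receptor of CSF1, had 0.174 CPM in KO and 2.8 CPM in WT. Of 10 genes of the prostaglandin pathway 3 rose and 7 fell, against the same shares of all genes. PTGES3 had 259 CPM in KO and 492 CPM in WT, and PTGS1, the constitutive cyclooxygenase, had 0.193 CPM in KO and 3.38 CPM in WT. PLA2G4A, the phospholipase that frees arachidonic acid, had 3.67 CPM in KO+G and 7.34 CPM in KO (log2 -1, adjusted p = 3.35e-09).

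NF-kB and MAP kinase signalling had 29 genes tested, of which 10 rose and 17 fell in KO against WT, and 5 rose and 12 fell in KO+G against KO. Over all genes 72.7% were called in KO against WT and 56.5% in KO+G against KO, so the share called in KO+G against KO is near the background. TNFAIP3, the ubiquitin-editing inhibitor of NF-kB that NF-kB itself induces, had 23 CPM in KO+G, against 42.4 CPM in KO and 14.5 CPM in WT. IKBKG, the regulatory subunit of the IKK complex, had 25.7 CPM in KO and 64.5 CPM in WT. Of 14 genes of cytokine mRNA decay 3 rose and 10 fell in KO against WT, and 7 rose and 2 fell in KO+G against KO, against 35.9% higher and 36.8% lower of all genes in KO against WT and 27.3% higher and 29.2% lower in KO+G against KO. KHSRP, a decay-promoting protein that binds AU-rich elements, had 651 CPM in KO+G, against 437 CPM in KO and 579 CPM in WT. HNRNPD, also an AU-rich element binding protein, had 323 CPM in KO+G, against 233 CPM in KO and 335 CPM in WT.

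The counts that follow stand beside 72.7% of all genes called in KO against WT, 35.9% as higher and 36.8% as lower. Among 14 genes of JAK and STAT signalling, 2 rose and 9 fell in KO against WT, and SOCS2 had 12.2 CPM in KO and 49.2 CPM in WT. Of 13 genes of processing and release 4 rose and 9 fell. CASP4, an inflammatory caspase and among those that rose, had 79.6 CPM in KO+G, against 119 CPM in KO and 74.8 CPM in WT. Among those that fell, ADAM10 had 92.8 CPM in KO and 137 CPM in WT. CAPN2 had 772 CPM in KO and 1050 CPM in WT, and CAPN1 had 120 CPM in KO and 161 CPM in WT. Of 11 adhesion partners tested 5 rose and 6 fell in KO against WT, and EZR, the linker of membrane proteins to actin, had 180 CPM in KO and 432 CPM in WT. Of 16 superoxide and peroxide enzymes 9 rose and 6 fell, and GPX1 had 190 CPM in KO and 99.9 CPM in WT, while PRDX1 had 245 CPM in KO and 460 CPM in WT.

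Likeness of pattern was measured as the root mean square difference of centred log2 CPM over the 18 libraries, a description in which all genes share the same libraries. The nearest coding gene was ERVV-2 to IL6 (0.25), GAB2 to LIF (0.07), PTPRB to IL1A (0.37) and COL6A2 to IL1B (0.3). MAL2 was nearest to CSF1 (0.22), FAM133A to CSF2 (0.23), GCKR to PTGS2 (0.25) and SULT1C2 to ICAM1 (0.29). Among the 9 genes themselves, LIF and SOD2 were closest (0.13), followed by IL1A with PTGS2 (0.29) and IL1B with ICAM1 (0.34). CSF1 and PTGS2 were farthest apart (1.19).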

How the data were processed

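Messenger RNA was sequenced from 18 libraries in 6 groups of 3. Libraries were stranded, per the labels, and 1 line was assumed, since the growth protocol names 1 line while the cell line field changes from sample to sample. The submitters' processing notes name Trim Galore 0.6.10, Salmon 1.10.0 and the build hg19. The authors deposited expected counts for 252048 transcripts in a series table, and per-sample tables with estimated counts, TPM and effective lengths, per the file headers. The files hold no coordinates. Positions come from GENCODE 29 (GRCh38) by transcript ID, and promoter sequences from RefSeq. Of the transcript IDs with version 68.6% occur in GENCODE 29.

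The deposited expected counts were summed to 62749 genes and rounded, since 32.5% of transcript values were not whole. All 18 libraries entered 1 edgeR 4.0.16 quasi-likelihood fit (R 4.3.3) with TMM scaling, after filterByExpr left 19252 genes. Benjamini-Hochberg adjustment was made within each of 10 comparisons, and 0.05 was the threshold. Totals of 45865079 to 63276484 counts and a common biological coefficient of variation of 4.87% set the precision. TPM, as the authors deposited it, was summed over transcripts and used for levels between genes. The fit was tested on simulated data. Alternatives were DESeq2 1.42.0, other scalings, no filter, an offset for transcript length, a replicate block, the 6 compared libraries alone and each library left out in turn. The members and lists were chosen with earlier results of these data known. The text names all members, IMPDH2, up to 4 genes of each list that passed in KO against WT or KO+G against KO, by adjusted p, and the coding genes nearest in pattern, of which some are not reported here.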

Additional observations from a re-analysis of the deposited data

How the results depend on the processing

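All 9 calls in KO+G against KO and in KO-NES against KO held under every alternative run. With an offset for transcript length, KO-WT against KO had 6511 genes called (9780 as reported) and 4 of the 9 genes described here (7 as reported), and KO-NLS against KO-NES had 1855 genes called (4600 as reported); the cause was not tested. Leaving out 1 library at a time gave 13491 to 13573 genes called in KO against WT, 10130 to 10255 in KO+G against KO, 8887 to 9169 in KO-WT against KO, 9414 to 9560 in KO-NLS against KO, 8915 to 9409 in KO-NES against KO and 3621 to 4217 in KO-NLS against KO-NES. Of the 9 genes, 7 to 8 were then called in KO against WT, 5 to 7 in KO-WT against KO, 8 to 9 in KO-NLS against KO and 6 to 7 in KO-NLS against KO-NES. The log2 fold changes that turned were small and not called. With library totals they were IL1B in KO against WT (0.06) and IL1A in KO-WT against KO (-0.06), which also turned without KO replicate 3 (-0.09) and without KO-WT replicate 1 (-0.06), and ranged from -0.09 to 0.17 with 1 library left out. IL6 in KO-WT against WT turned with the length offset (-0.05), without WT replicate 1 (-0.02) or 2 (-0.01) and without KO-WT replicate 1 (-0.02), with a range of -0.02 to 0.07. CSF2 in KO-NLS against KO-NES turned without KO-NLS replicate 2 (0.05) and without KO-NES replicate 2 (0.11), with a range of -0.15 to 0.11. PTGS2 in KO-NLS against WT turned without KO-NLS replicate 2 (-0.02), with a range of -0.02 to 0.12. Over all alternatives 40 values of single genes lost their call, 4 gained one, 11 turned in sign with no call before or after, and 1115 kept both direction and side of the threshold. Deviations of same-numbered replicates from their group means correlated at -0.09 to 0.14, so no strong effect shared by replicate number was seen. Whether the libraries were paired by number is not known. With a replicate block 4425 to 13955 genes were called over the comparisons, and 0 of 90 calls of the genes described changed. Genes with few counts, IL1A and CSF2 among them, are limited by depth, and TNF could not be tested.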
